A study of Mus musculus with 4 samples.

Results

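The genes described here encode subunits of the 5 enzyme complexes of oxidative phosphorylation, and they come from 2 genomes. They were chosen by symbol: the Nduf genes of complex I whose names go on with a, b, c, s or v and a number, Sdha to Sdhd of complex II, the Uqcr genes of complex III, the Cox4 to Cox8 genes of complex IV, the Atp5 genes of complex V and every gene whose symbol starts with mt-. The symbols matched 97 of 27998 genes, and 93 of them had at least 10 UMIs (unique molecular identifiers, each standing for 1 captured RNA molecule) over all 15053 cells and are the members. Of these, 80 are nuclear and 13 are encoded by mitochondrial DNA. The nuclear members are 35 of complex I, 4 of complex II, 8 of complex III, 16 of complex IV and 15 of complex V, with Ndufa4 placed in complex IV, where its protein is now known to sit. Atp5s and Atp5sl were taken by the name rule but are not subunits of ATP synthase, so they count as members of no complex. The members just above the minimum were Cox4i2 with 13 UMIs and Cox6a2 with 50. Ndufa4l2 with 1 UMI and Cox7b2, Cox8b and Cox8c with 0 were left out. Subunits with other names, such as Cyc1 and Ndufab1, were outside the rule.

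The cells came from the small intestine of mice on a control diet or a ketogenic diet (high in fat and very low in carbohydrate), dissociated and run on the 10x 3' v2 platform, with 2 libraries per diet. Strain, genotype, sex, age, days on the diet and animals per library are not in the labels used here. The p-values therefore rest on library-to-library spread, part or all of which may be technical. The authors' table puts each cell in 1 of 7 epithelial types: stem cells, transit amplifying cells (the dividing daughters of stem cells), enterocytes (the absorptive cells), goblet cells (which secrete mucus), a Paneth class (which secretes antimicrobial peptides), enteroendocrine cells (which secrete hormones) and tuft cells (which sense the contents of the gut).

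Complexes I to IV pass electrons from NADH and succinate to oxygen, and all of them but complex II pump protons across the inner mitochondrial membrane. Complex V, the ATP synthase, uses the proton gradient to make ATP. Every complex but complex II is built from subunits of both genomes, so its assembly needs matched supplies of both, although nuclear messages are made singly in the nucleus and mitochondrial ones are cut from long transcripts of a small circular DNA. The intestinal epithelium burns glutamine, fatty acids and ketone bodies through this pathway, and respiration is known to increase as cells leave the crypt and become absorptive.

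In the sentences that follow, a run of 4 values gives control libraries 1 and 2 and then, after the word against, ketogenic libraries 1 and 2. Libraries held 3194 to 4896 cells and 27316428 to 34106639 UMIs, and pairs of libraries shared 10 to 26 cell barcodes. The 7 stem markers summed to 2025 and 2041 against 2007 and 2011 CPM (UMIs scaled to a total of 1000000) in stem cells, and the 7 enterocyte markers to 3004 and 3094 against 10051 and 5419 CPM in enterocytes. In the Paneth class its 6 own markers summed to 89052 and 43326 against 207874 and 157274 CPM, and the 6 goblet markers to 40897 and 57268 against 44360.5 and 31094 CPM, above the Paneth markers in control library 2. That class thus carried markers of both types in proportions that differed between libraries. Red cell markers were at 0 in enterocytes and in stem cells, and the 6 immune markers summed to at most 1.82 CPM in enterocytes. Over all cells, the mitochondrial members took 12518464 UMIs and the nuclear members 6539320. Each UMI is 1 molecule tagged at the 3' end, so CPM values need no division by gene length, but capture can differ between genes.

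Levels across cell types came first. They are a description with no test, because the types were assigned by the authors on the same cells and may have used the same genes. Nuclear members took the largest share of the non-mitochondrial UMIs in enterocytes and the smallest in the Paneth class. In enterocytes the share was 7.59 and 7.07 against 6.58 and 6.26 percent, and in transit amplifying cells it was 6.33 and 6.45 against 5.82 and 5.83 percent. In stem cells it was 5.04 and 5.25 against 5.10 and 4.95 percent. The order from enterocytes through transit amplifying cells to stem cells held in every library, with no overlap between neighbouring types within a diet. Below them came tuft cells at 4.48 and 4.83 against 4.38 and 4.26 percent, goblet cells at 4.22 and 4.20 against 3.91 and 3.97 percent and enteroendocrine cells at 3.70 and 3.79 against 3.58 and 3.57 percent. The Paneth class was lowest, at 3.03 and 3.52 against 1.95 and 2.30 percent.

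Mitochondrial members followed another order. They took 12.1 and 11.00 against 13.3 and 11.2 percent of all UMIs in enterocytes and 12.1 and 10.4 against 13.6 and 10.9 percent in stem cells, and these ranges overlap. Transit amplifying cells lay close by at 10.7 and 9.66 against 10.7 and 9.88 percent. The secretory and tuft cells sat well below, with 6.20 and 6.41 against 5.80 and 5.77 percent in goblet cells, 6.67 and 6.63 against 6.32 and 6.05 percent in tuft cells, 4.55 and 4.99 against 4.62 and 4.69 percent in enteroendocrine cells and 3.69 and 3.61 against 2.89 and 3.12 percent in the Paneth class. Stem cells and enterocytes thus differed in the nuclear share while their mitochondrial shares overlapped when all cells were counted. In cells under 10% mitochondrial UMIs these shares did not overlap, with 6.79 and 6.81 against 6.93 and 6.64 percent in enterocytes. Stem cells under that limit had 6.16 and 6.43 against 6.49 and 6.15 percent.

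**Figure D1:**
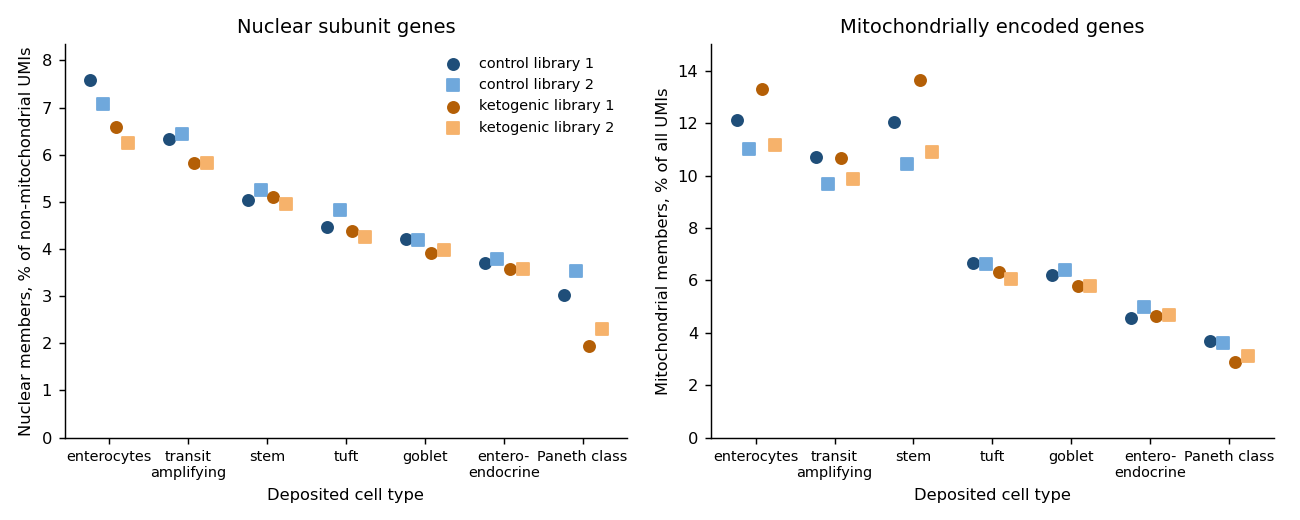
Share of UMIs taken by the nuclear members (left, percent of non-mitochondrial UMIs) and by the mitochondrial members (right, percent of all UMIs) in each deposited cell type, with 1 point per library. On the left the 7 types descend from enterocytes (7.59% in control library 1) to the Paneth class (1.95% in ketogenic library 1), and on the right enterocytes, transit amplifying cells and stem cells lie together above the other 4 types.

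Gene by gene, the mean level of 75 of the 80 nuclear members was higher in enterocytes than in stem cells. The median log2 ratio of enterocytes to stem cells over the nuclear members was 0.47 per non-mitochondrial UMI, while over the 7444 genes with a mean of at least 10 CPM it was -0.02. The median was 0.31 in transit amplifying cells, -0.19 in tuft cells, -0.32 in goblet cells, -0.50 in enteroendocrine cells and -0.93 in the Paneth class, against stem cells each time. All genes of that level had medians of 0.01, 0.10, -0.21, 0.14 and -0.76 in the same order. In the Paneth class most genes are thus low beside stem cells, and the members are low with them. Enterocytes were the highest type for 69 nuclear members. The exceptions included Atp5j and Ndufa10, highest in transit amplifying cells, Atp5s, Cox6c, Ndufa7 and Ndufs4, highest in tuft cells, Atp5e, highest in goblet cells, Cox7a2l, highest in enteroendocrine cells, and Cox4i2 and Cox6b2, highest in stem cells.

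By mean over the libraries, the most abundant nuclear member of each complex was the same in stem cells and in enterocytes. Ndufb9, an accessory subunit of complex I, was at 1013 and 967 against 856 and 893 CPM in enterocytes and at 636 and 695 against 619.6 and 695 CPM in stem cells. Sdhb, the iron-sulfur subunit of succinate dehydrogenase (complex II), was at 629 and 536 against 447 and 478 CPM in enterocytes and at 297 and 313 against 321 and 299 CPM in stem cells. Uqcrh, the hinge subunit of complex III, was at 1505 and 1496 against 1393 and 1312 CPM in enterocytes and at 1236 and 1299 against 1228 and 1192 CPM in stem cells. Sdhb had the largest ratio between the types of these members. Cox4i1, a core nuclear subunit of complex IV, reached 3094 and 3008 against 2730.1 and 2839 CPM in enterocytes and 2588 and 2625 against 2598 and 2620.2 CPM in stem cells. Atp5b, the catalytic beta subunit of ATP synthase, reached 2175 and 2092 against 1562 and 1880.0 CPM in enterocytes and 1458 and 1604 against 1423 and 1629 CPM in stem cells. For both, every control library was higher in enterocytes than in any stem cell library, while the lowest ketogenic enterocyte level of Atp5b fell within the stem cell range. In that library, ketogenic library 1, Atp5g1 at 1644 CPM was above Atp5b.

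Complex IV is the complex with alternative subunits, and they were not used alike. Cox7a1, the version of subunit 7a known from heart and skeletal muscle, had the largest ratio of enterocytes to stem cells of any nuclear member, a mean of 3.30 on the log2 scale. It was at 118 and 90.2 against 66.5 and 44.4 CPM in enterocytes, at 26.5 and 22.7 against 16.5 and 12.2 CPM in transit amplifying cells and at 7.80 and 7.51 against 6.42 and 5.29 CPM in stem cells. Its widely expressed counterpart Cox7a2 was far more abundant, at 1362 and 1253 against 1126 and 1022 CPM in enterocytes and 719 and 802 against 745 and 659 CPM in stem cells. Cox7a2l, whose protein joins complexes III and IV into supercomplexes, was at 957 and 1035 against 1096 and 1105 CPM in enteroendocrine cells and at 608 and 739.5 against 730.3 and 706 CPM in enterocytes. Cox6b2, the version of subunit 6b known from testis, ran the other way from Cox7a1 and had the lowest ratio of enterocytes to stem cells, -0.78. It was at 35.4 and 40.6 against 64.2 and 58.8 CPM in stem cells and at 13.9 and 22.2 against 46.4 and 40.7 CPM in enterocytes. Cox6b1, the general version, was at 1114 and 1181 against 1147 and 1091 CPM in stem cells and 1825 and 1629.9 against 1621 and 1472 CPM in enterocytes.

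Other alternative versions were nearly silent. Cox6a2, the muscle version of subunit 6a, had 0 UMIs in stem cells and 0.386 to 0.792 CPM in enterocytes, where Cox6a1 was at 1739 to 2089 CPM. Cox4i2, the version of subunit 4 known from lung, had 13 UMIs in the whole series, 9 of them in control library 2, so no level can be set for it by type. Subunit 8 came from Cox8a, at 2121 to 2534 CPM in enterocytes. The ring of c subunits that turns in ATP synthase is encoded by Atp5g1, Atp5g2 and Atp5g3, which give the same mature protein. Atp5g1 was at 1644 to 1949.7 CPM in enterocytes and 1052 to 1125 CPM in stem cells. Atp5g3 was at 739.6 to 875 and 476 to 507 CPM in the same types. Atp5g2, at 913 to 1032 and 897 to 1001 CPM, was level between them.

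The messages of the mitochondrial DNA had a similar makeup in enterocytes, transit amplifying cells and stem cells, and another in the remaining types. Their shares of the mitochondrial UMIs in each sum are used here, so the total of mitochondrial UMIs drops out. The mix of cells with high and low mitochondrial content does not. mt-Co1, the catalytic subunit of complex IV, made up 10.1% to 11.9% over the 12 sums of those 3 types. In the other 4 types it made up 14.6% to 19.3%, so the 2 ranges did not overlap. mt-Cytb, the only mitochondrial subunit of complex III, ran in the opposite direction, with 12.96% to 13.7% in the first 3 types and 10.1% to 11.9% in the other 4. mt-Nd1 of complex I did the same, with 9.60% to 11.3% and 7.60% to 9.18%. mt-Co3, a further complex IV message, made up 21.2% to 23.2% in all 28 sums. mt-Atp6, of the ATP synthase, made up 19.99% to 22.4%. mt-Nd4l and mt-Nd4, and mt-Atp8 and mt-Atp6, overlap on the mitochondrial DNA and are made as joint messages, so the split of UMIs within each pair is uncertain. Median UMIs per cell were 5033 to 9268 in the 4 types and 5646 to 11691 in the 3 types. Cells with at least 50% mitochondrial UMIs made up 0.0% to 0.707% of the cells in the 4 types and 1.04% to 12.7% in the 3 types. The makeup was not taken in cells under 10% mitochondrial UMIs alone. The part of depth and of mitochondrial content in the shift was not tested.

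A single library stood apart in 2 members. mt-Nd3, a small complex I subunit, was lowest in ketogenic library 2 in all 7 types. In enterocytes it made up 0.834 and 0.896 against 0.753 and 0.545 percent of the mitochondrial UMIs, and in stem cells 0.832 and 0.901 against 0.721 and 0.521 percent. Sdhd, which anchors complex II in the membrane, was lowest in control library 2 in 6 of 7 types. In enterocytes it was at 363 and 221 against 309 and 299 CPM, and in stem cells at 181 and 125 against 189.8 and 188 CPM. No diet comparison of mt-Nd3 or Sdhd should be read without these libraries in view.

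**Figure D2:**
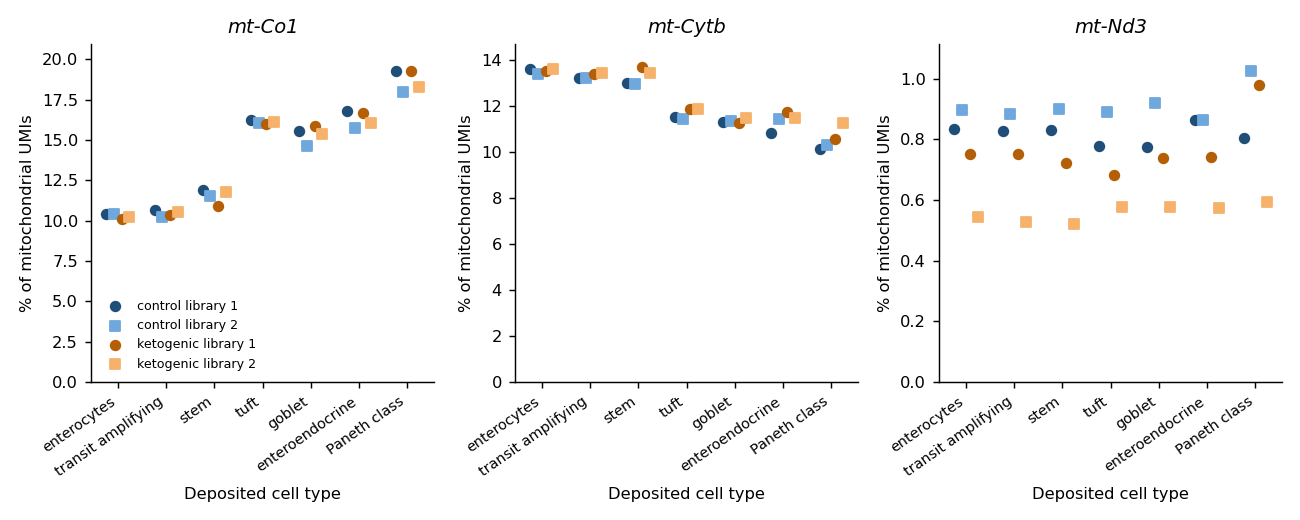
Percent of the mitochondrial UMIs of each cell type and library that came from mt-Co1, mt-Cytb and mt-Nd3, with 1 point per library and each axis starting at 0. mt-Co1 lies higher and mt-Cytb lower in the 4 types on the right (14.6% to 19.3% and 10.1% to 11.9%), and ketogenic library 2 is the lowest point for mt-Nd3 in each type.

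The diet comparison asked whether the ketogenic diet changed these genes in each cell type. UMIs were summed per library and type and tested across all genes with edgeR's quasi-likelihood test and Benjamini-Hochberg adjustment, with a threshold of 0.05. The CPM values that follow are scaled by the TMM factors of that test. A single member passed in any type: Cox6b2 rose in transit amplifying cells. In the background, 0.715% of the 10069 genes tested there were called. In the other groups no member was called, while 0.172% of genes were called in all cells, 0.336% in stem cells, 0.180% in enterocytes, 0.521% in goblet cells, 0.440% in the Paneth class, 0.0582% in enteroendocrine cells and 0.0144% in tuft cells. These shares are so low that a count of 0 among 93 members is near the background. Without control library 2 the members called numbered 3 of 92 in enterocytes and 3 of 91 in transit amplifying cells, while 6.37% and 2.81% of all genes were then called. Without ketogenic library 1 they numbered 3 of 91 in tuft cells, beside 0.400% of all genes.

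Nuclear members were nevertheless lower as a group on the ketogenic diet in enterocytes. Of 79 tested, 73 had a fold change below 0 on the log2 scale, and the median was -0.20 beside 0.02 over all 11697 genes. Both ketogenic libraries lay below both control libraries for 67 of the 79, while 20.5% of all genes did so. With edgeR 0 were called, with 14 lower and 1 higher at an unadjusted p under 0.05, where 5.45% of all genes were lower and 4.46% higher. DESeq2 called 1 lower and 1 higher, beside 1.5% of all genes. The summed nuclear share was 7.33% ± 0.368 (SD, n = 2) on the control diet and 6.42% ± 0.227 (SD, n = 2) on the ketogenic diet. Its libraries did not overlap, but an exact permutation test of 2 against 2 libraries cannot go below 0.33. Members share libraries and are not replicates, so the count of members measures breadth and not certainty. Leaving out each library in turn kept the median between -0.26 and -0.15.

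The shift ran through all 5 complexes. In complex I, all 35 nuclear members had lower mean levels in enterocytes, with a median of -0.19, and 33 lay lower without overlap. Ndufa5, an accessory subunit at the joint of the 2 arms of complex I, was at 584 and 525 against 487 and 382 CPM. Its log2 fold change was -0.35 ± 0.14 (SE), with an edgeR adjusted p of 0.486. Both ketogenic libraries were lowest, and library 2 more so. Ndufa5 and Ndufa11, which sits at the membrane arm, were the only nuclear members lower in both ketogenic libraries in each of the 7 types. That was out of 73 tested in all 7, and 31 of the 73 had a fold change below 0 in each type. In single types 16.1% to 20.5% of all genes lay lower in both ketogenic libraries. The share of all genes that did so in each type was not counted, and the types come from the same libraries. Ndufs4 and Ndufa7 were the complex I members whose libraries overlapped in enterocytes.

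Complex II has no mitochondrial subunit and also takes part in the tricarboxylic acid cycle. Sdha, its flavoprotein and the site of succinate oxidation, was at 349.8 and 361 against 254 and 306 CPM in enterocytes, a log2 fold change of -0.34 ± 0.12 with an adjusted p of 0.421 by edgeR. Sdhb was at 623 and 540.1 against 462 and 465 CPM, a log2 fold change of -0.33 ± 0.11 with an adjusted p of 0.412 by edgeR. Sdhc lay at 291 and 282 against 264 and 256 CPM and Sdhd at 359 and 222 against 320.0 and 290.0 CPM, where control library 2 was lowest and the diets overlapped. Sdha, Sdhb and Sdhc were thus each lower in both ketogenic libraries without passing the test.

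All 8 nuclear members of complex III were lower in both ketogenic libraries in enterocytes, with a median of -0.25, the lowest of the 5 complexes. Uqcrc1, a large core subunit, was at 806 and 736 against 615 and 634 CPM, a log2 fold change of -0.30 ± 0.11 with an adjusted p of 0.421 by edgeR. Uqcrfs1, the Rieske iron-sulfur protein that passes on electrons, was at 619 and 563 against 509.7 and 494 CPM. Uqcrh moved least of the 8, at 1490.4 and 1507 against 1441 and 1274 CPM.

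Complex IV was mixed. Of 15 nuclear members tested in enterocytes, 12 had a fold change below 0, and 10 lay lower without overlap. Cox5a, which binds near the catalytic core, was at 1676 and 1605 against 1353 and 1342 CPM, a log2 fold change of -0.28 ± 0.11 with an adjusted p of 0.461 by edgeR. Cox4i1 was at 3065 and 3029.8 against 2824 and 2757 CPM, with a smaller difference of -0.13 ± 0.12. Cox7a2l overlapped, at 602 and 745 against 755 and 685 CPM. Cox6b2 lay higher and Cox7a1 lower than any other nuclear member, and both are described further on.

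In complex V, 14 of 15 members had a fold change below 0 in enterocytes and 13 lay lower without overlap. Atp5b was at 2154 and 2107 against 1616 and 1826 CPM, a log2 fold change of -0.31 ± 0.12 with an adjusted p of 0.472 by edgeR. The c subunit genes differed among themselves. Atp5g1 was at 1931 and 1876 against 1701 and 1625 CPM, lower in both ketogenic libraries. Atp5g2 was at 908 and 919.8 against 986 and 1002 CPM, higher in both, with a log2 fold change of 0.12 ± 0.10 and an adjusted p of 0.719 by edgeR. Atp5g3 overlapped, at 867 and 757 against 800.2 and 718 CPM.

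The mitochondrial members did not go along. In enterocytes their fold changes ran from -0.29 to 0.17 and 12 of 13 overlapped between diets. mt-Cytb was at 16312 and 14863 against 18588 and 14797 CPM and mt-Co1 at 12459.6 and 11553 against 13858 and 11132 CPM, so ketogenic library 1 was highest and the others lay together. mt-Nd4l was the exception, at 205 and 199.9 against 180.4 and 160.3 CPM. Of the complex I messages, mt-Nd1, mt-Nd2, mt-Nd4 and mt-Nd5 had fold changes above 0, and mt-Nd3 and mt-Nd6 below. The other complex IV and V messages, mt-Co2, mt-Co3, mt-Atp6 and mt-Atp8, were above 0. These signs were not stable: the median over the 13 was 0.08 with 10 above 0, -0.10 with 1 above 0 without ketogenic library 1, -0.04 with 3 above 0 in cells under 50% mitochondrial UMIs, and 0.22 without ketogenic library 2. The log2 ratio of nuclear to mitochondrial UMIs in enterocytes was -0.860 and -0.805 against -1.22 and -1.01. Both ketogenic libraries were lower, by 0.281 on average. In stem cells the ratio was -1.44 and -1.15 against -1.63 and -1.30, and the diets overlapped. The Paneth class also had a lower ratio in both ketogenic libraries, with a mean difference of -0.334. In cells under 10% mitochondrial UMIs the ketogenic libraries were lower in every type but enteroendocrine and tuft cells, where the diets overlapped. Stem cells under that limit were at -0.507 and -0.478 against -0.590 and -0.514.

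**Figure D3:**
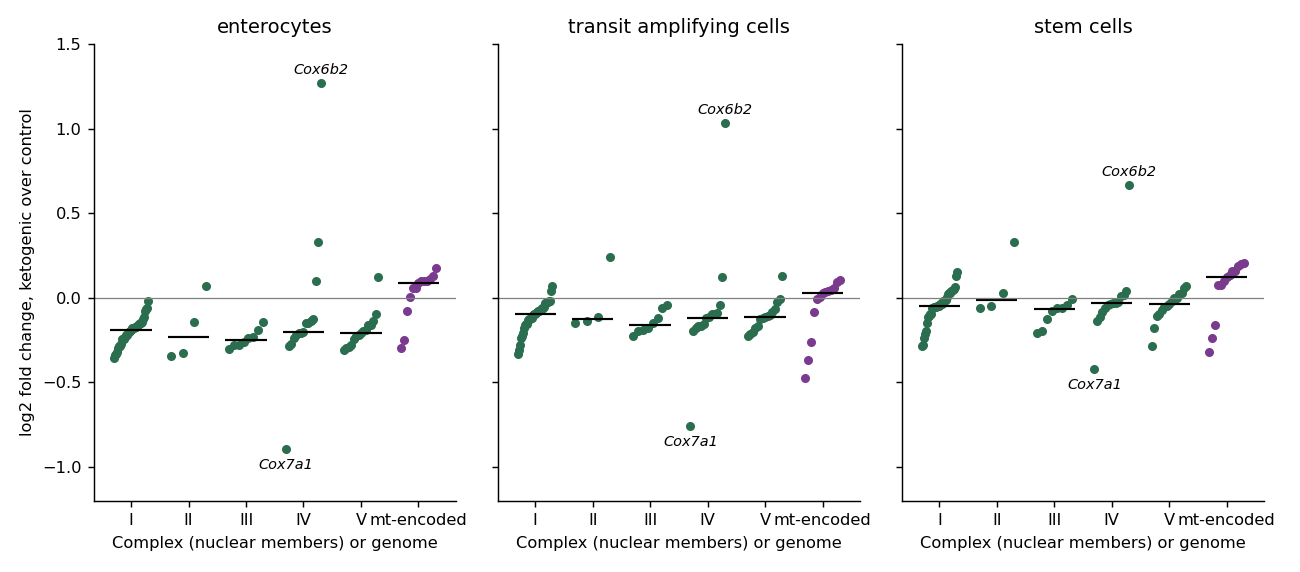
Log2 fold change of each tested member, ketogenic over control, in enterocytes, transit amplifying cells and stem cells, with 1 point per gene, nuclear members by complex and mitochondrially encoded members on their own, and bars at the medians. In enterocytes every complex has its median between -0.19 and -0.25, Cox6b2 and Cox7a1 stand off on either side, and the mitochondrial members have a median of 0.08, which turns below 0 without ketogenic library 1.

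The spread of mitochondrial content between cells moved with the diet in enterocytes, so the nuclear share was taken within classes of cells. Enterocytes with at least 50% mitochondrial UMIs made up 4.45% and 3.93% against 12.7% and 7.28% of the cells, with the control libraries first. In enterocytes under 10% the nuclear share was 7.21% and 6.71% against 6.15% and 5.92%, and from 10% to 25% it was 8.51% and 8.06% against 7.73% and 7.19%. From 25% to 50% it was 8.93% and 9.22% against 8.46% and 8.08%, and at 50% or more it was 9.32% and 8.96% against 8.04% and 8.20%. The nuclear share was lowest in cells under 10% in each library, and in each of the 4 classes both ketogenic libraries lay below both control libraries. Split by depth instead, the share was 8.53% and 8.27% against 7.92% and 7.50% in enterocytes under 5000 UMIs, 6.99% and 6.50% against 6.56% and 5.92% from 5000 to 10000 and 7.67% and 7.57% against 6.44% and 6.24% above, so the diets overlapped in the middle class. The enterocyte markers, among them Apoa4 and Fabp1, were also higher in both ketogenic libraries, as given above, and 6 Paneth markers in enterocytes summed to 88.5 and 161 against 355 and 197 CPM. Their part in the lower nuclear share was not tested.

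**Figure D4:**
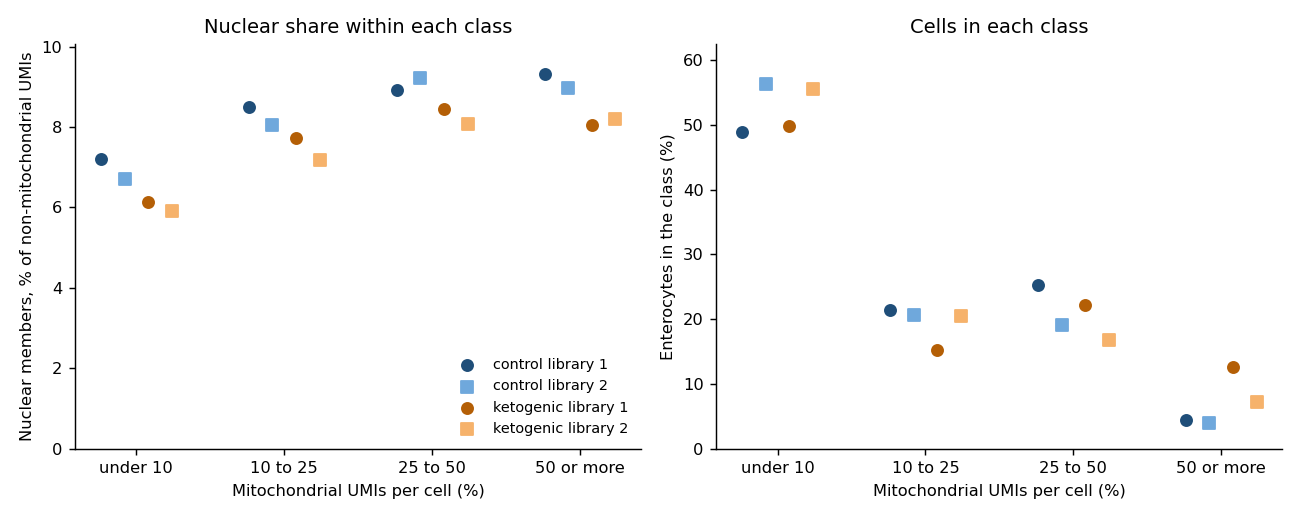
Nuclear share of non-mitochondrial UMIs (left, percent) and percent of enterocytes (right) in 4 classes of mitochondrial content per cell, with 1 point per library. The ketogenic libraries lie below the control libraries on the left in each class, and hold more of the cells at 50% or more (4.45% and 3.93% against 12.7% and 7.28%).

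Other groups of cells were compared in the same way. With all cells pooled, 73 of 79 nuclear members had a fold change below 0, the median was -0.23, and 70 lay lower without overlap beside 21.1% of all genes. There edgeR called 0, with 39 lower and 1 higher at an unadjusted p under 0.05, where 5.33% of all genes were lower and 5.62% higher. DESeq2 called 2 lower and 1 higher, beside 1.77% of all genes. In pooled cells, too, Ndufa5, Sdha, Uqcrc1 and Cox7a1 were the lowest of their complexes by fold change, with Atp5k (552 and 519 against 454 and 391 CPM) in complex V. Ndufs4, Sdhd, Uqcrh, Cox6b2 and Atp5g2 were the highest of theirs, and of these Cox6b2 and Atp5g2 lay above without overlap. Pooled cells mix types in different proportions, and with an equal mix of types the median was -0.17. In transit amplifying cells 70 of 78 had a fold change below 0, with a median of -0.11, and 42 lay lower without overlap beside 19.6% of all genes. Enterocyte markers in transit amplifying cells summed to 812 and 893 against 3081 and 1979 CPM and Paneth markers to 105 and 96.8 against 329 and 177 CPM, higher in both ketogenic libraries, and their part in these differences and in the calls made in this type was not tested. In stem cells 56 of 78 did, with a median of -0.04, and 17 lay lower without overlap beside 17.5% of all genes, a share close to the background. Within stem cells the member with the largest difference below 0 in each complex was Ndufa11 (233 and 262 against 191 and 215 CPM), Sdhc (192 and 192 against 179.5 and 188 CPM), Uqcr10 (843 and 912 against 805 and 716 CPM), Cox7a1 and Atp5k (338 and 387 against 327 and 272 CPM), a subunit that helps ATP synthase form dimers. At the upper end stood Ndufb3 (175 and 191 against 221 and 189 CPM), Sdhd, Uqcrc2, Cox6b2 and Atp5g3 (467 and 496 against 518 and 496 CPM), and the diets overlapped for Ndufb3, Uqcrc2 and Atp5g3. In stem cells edgeR called 0, with 3 lower and 2 higher at an unadjusted p under 0.05, where 2.82% of all genes were lower and 3.61% higher, and DESeq2 called 0. The stem cell median was 0.04 without control library 2, so it has no settled direction.

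Whether the diet effect differed between stem cells and enterocytes was tested in 1 fit with library as a block. None of 91 members was called, beside 0.259% of 11570 genes. At an unadjusted p under 0.05 by edgeR there were 16 of 78 nuclear members. The share of all genes at that p was not counted for this contrast, so the 16 cannot be set against a background. DESeq2 was not run on this contrast. The log2 fold change in stem cells minus that in enterocytes was above 0 for 75 of 78 nuclear members. The median difference was 0.17 beside 0.02 over all genes. A value above 0 does not mean a larger diet effect in stem cells, since most members were below 0 in enterocytes and nearer to no change in stem cells. Atp5b had the lowest p, with a difference of 0.33 ± 0.11 (SE) and an adjusted p of 0.367 by edgeR. Its log2 fold change was -2.1e-05 in stem cells and -0.31 in enterocytes. Without control library 2, 13 members were called, beside 3.00% of all genes, and the median difference was 0.30. Without control library 1, 0 were called and it was 0.04, so the size of the difference rests on which control library is kept.

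In the remaining types no member passed edgeR's test, and DESeq2 also called 0 in each. At an unadjusted p under 0.05, nuclear members lower and higher numbered 12 and 1 in goblet cells, 5 and 1 in the Paneth class, 3 and 0 in enteroendocrine cells and 6 and 0 in tuft cells. Of all genes, 4.54% and 4.43% were lower and higher at that p in goblet cells, 3.08% and 4.60% in the Paneth class, 2.43% and 2.18% in enteroendocrine cells and 2.76% and 2.59% in tuft cells. Both ketogenic libraries lay below both control libraries for 46 of 78 nuclear members in goblet cells and 29 of 73 in the Paneth class. They did so for 18 of 76 in enteroendocrine cells and 29 of 77 in tuft cells. Of all genes, 19.1%, 20.1%, 16.1% and 16.5% lay below in the same order. Those above numbered 7, 5, 12 and 4, beside 19.4%, 19.1%, 16.8% and 17.5% of all genes. The summed nuclear share was lower in both ketogenic libraries in each of these types. In goblet cells the nuclear share was 4.21% ± 0.0142 (SD, n = 2) on the control diet and 3.94% ± 0.0459 (SD, n = 2) on the ketogenic diet. Of the mitochondrial members, 8 of 13 in goblet cells and 9 of 13 in tuft cells lay lower in both ketogenic libraries, beside 19.1% and 16.5% of all genes. In the Paneth class, with 35 to 56 cells a library, 8 of 12 lay higher by TMM-scaled CPM, beside 19.1% of all genes, while unscaled CPM put the mean of 11 of 13 lower and the whole mitochondrial share lower. The scaling moves all genes there: the median unscaled difference over 5903 genes was -0.43, beside -0.27 for the mitochondrial members, and the Paneth and goblet markers of the class, given above, also differed between libraries. No direction is given for the mitochondrial members of that class. mt-Nd3 in goblet cells was at 472 and 609 against 436 and 326 CPM, a log2 fold change of -0.50 ± 0.13 with an edgeR adjusted p of 0.117, and ketogenic library 2 is its lowest library in each type.

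Cox6b2 and Cox7a1 were the members that differed most between the diets, in opposite directions, and both are minor versions of a complex IV subunit. Cox6b2 spans chr7:4751792-4753094 and Cox7a1 chr7:30184144-30186078 of GRCm38. In transit amplifying cells Cox6b2 was at 21.8 and 22.4 against 48.7 and 42.2 CPM. Its log2 fold change was 1.03 ± 0.14 (SE), with an edgeR adjusted p of 0.00362, and it was called under each of 12 alternatives. In enterocytes it was at 13.8 and 22.4 against 48.04 and 39.6 CPM, 1.27 ± 0.23 with an adjusted p of 0.120 by edgeR. In stem cells it was at 34.7 and 41.5 against 65.6 and 58.4 CPM, 0.67 ± 0.16 with an adjusted p of 0.0680 by edgeR. In these 3 types both ketogenic libraries lay above both control libraries. So did those of goblet cells, at 9.51 and 9.24 against 16.03 and 10.6 CPM. In tuft cells the libraries overlapped, at 22.9 and 10.3 against 18.8 and 16.4 CPM. Cox6b1 was at 1807 and 1642 against 1677 and 1429 CPM in enterocytes, so the gain of Cox6b2 was small beside the level of the general version.

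Since Cox6b2 is highest in stem cells, stem markers are given beside it. They summed to 758 and 841 against 874 and 945 CPM in transit amplifying cells and to 477 and 753 against 727 and 822 CPM in enterocytes, where control library 1 was lowest in both measures, and their part in the result was not tested. The nearest gene on the same strand, Fam71e2, lies 131 bases away and had 0 UMIs in the series.

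Cox7a1 was lower on the ketogenic diet where it was most abundant. In enterocytes it was at 117 and 90.8 against 68.8 and 43.1 CPM, a log2 fold change of -0.89 ± 0.23 with an adjusted p of 0.258 by edgeR. In transit amplifying cells it was at 25.9 and 22.97 against 17.05 and 12.03 CPM, -0.76 ± 0.19 with an adjusted p of 0.138 by edgeR. In stem cells, with 11 to 25 UMIs a library, it was at 7.66 and 7.68 against 6.56 and 5.26 CPM. Both ketogenic libraries were lower in each of these 3 types, and ketogenic library 2 was lowest. In goblet cells its libraries overlapped, at 21.1 and 31.1 against 21.8 and 21.3 CPM. DESeq2 called both genes in enterocytes, Cox6b2 higher and Cox7a1 lower. Cox7a2 was at 1349 and 1262 against 1165 and 993 CPM in enterocytes.

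**Figure D5:**
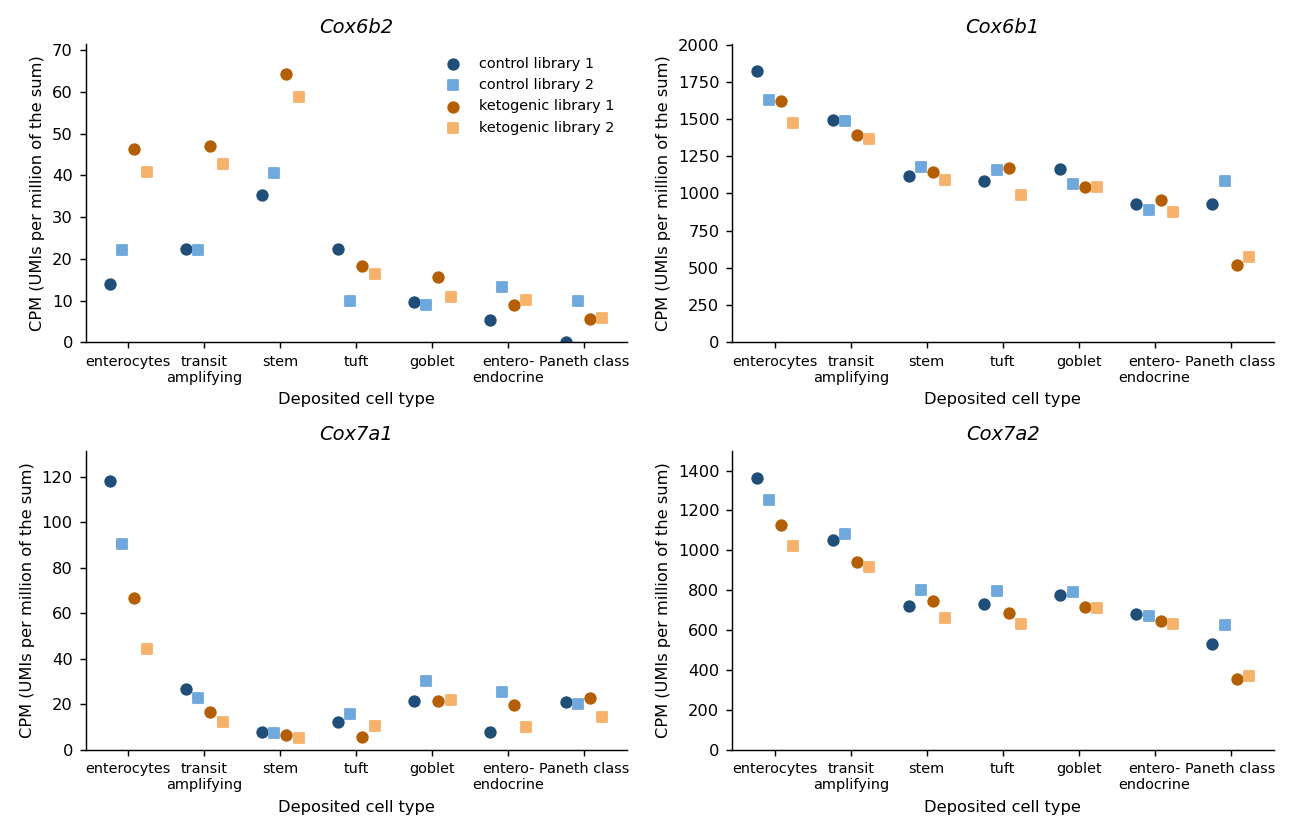
Unscaled CPM of the alternative complex IV genes Cox6b2 and Cox7a1 and of their general versions Cox6b1 and Cox7a2 in each deposited cell type, with 1 point per library and each axis starting at 0. Cox6b2 is higher in both ketogenic libraries in enterocytes, transit amplifying cells and stem cells, and Cox7a1 peaks in enterocytes, where the ketogenic libraries (66.5 and 44.4 CPM) lie below the control libraries.

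The sequences upstream of these genes were set side by side, because each pair encodes versions of a single subunit and the minor versions had the largest diet differences of all members. RefSeq promoter sequences of GRCm38.p6 were matched for 67 of the 80 nuclear members, and the 250 bases before the start were searched on both strands for 4 short motifs of factors known to act on respiratory genes. NRF1 was searched as GCGCATGC, the ETS family (which includes GABPA) as CCGGAAG, YY1 as AAGATGGC and the ERR receptors as CAAGGTCA. Capitals mark a match to any of them on either strand, with overlapping matches merged. Ndufa11 is added as an example, picked because it was lower in each type and also holds an NRF1 match. A relation between motifs and the diet difference was not tested.
Cox6b1 (chr7:30626115-30626364, minus strand): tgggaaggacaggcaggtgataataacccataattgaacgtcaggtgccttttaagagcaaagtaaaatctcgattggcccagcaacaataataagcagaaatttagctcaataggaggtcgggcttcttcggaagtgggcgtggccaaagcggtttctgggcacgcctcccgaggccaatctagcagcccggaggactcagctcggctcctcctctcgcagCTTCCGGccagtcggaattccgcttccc
Cox6b2 (chr7:4753095-4753344, minus strand): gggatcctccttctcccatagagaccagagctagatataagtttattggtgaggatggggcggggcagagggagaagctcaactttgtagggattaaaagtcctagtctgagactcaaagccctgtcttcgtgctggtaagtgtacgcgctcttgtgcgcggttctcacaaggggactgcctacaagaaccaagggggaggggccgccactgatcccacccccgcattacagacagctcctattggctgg
Cox7a1 (chr7:30183921-30184170, plus strand): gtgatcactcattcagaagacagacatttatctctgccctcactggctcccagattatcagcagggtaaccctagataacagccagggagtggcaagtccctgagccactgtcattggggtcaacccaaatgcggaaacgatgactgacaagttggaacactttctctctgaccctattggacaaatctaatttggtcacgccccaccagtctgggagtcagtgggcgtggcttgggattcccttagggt
Cox7a2 (chr9:79759854-79760103, minus strand): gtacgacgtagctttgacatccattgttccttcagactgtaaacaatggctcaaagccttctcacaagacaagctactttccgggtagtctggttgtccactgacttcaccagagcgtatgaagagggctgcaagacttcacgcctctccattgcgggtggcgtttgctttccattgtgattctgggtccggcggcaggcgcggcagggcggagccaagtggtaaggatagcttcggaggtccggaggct
Ndufa11 (chr17:56717512-56717761, plus strand): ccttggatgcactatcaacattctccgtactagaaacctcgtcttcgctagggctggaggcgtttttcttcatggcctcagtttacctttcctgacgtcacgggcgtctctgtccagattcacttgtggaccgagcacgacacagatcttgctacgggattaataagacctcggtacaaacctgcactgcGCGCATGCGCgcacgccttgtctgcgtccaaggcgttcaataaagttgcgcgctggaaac

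Cox6b1 held an ETS match, while Cox6b2, Cox7a1 and Cox7a2 held none of the 4 motifs in this window. Over the members, NRF1 matches were found in 8 of 67 (11.9%) beside 2.56% of 27025 genes with a promoter of the same length. ETS matches were found in 12 of 67 (17.9%) beside 7.83% of genes. YY1 matches were found in 2 members (2.99%) beside 1.83%, and ERR matches in 3 (4.48%) beside 1.51%. The 27025 genes were not matched to the members in expression or in base content, and the shares were not tested against each other. A match is a description of the letters and not a bound site.

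Genes around the pathway were followed on lists that hold no member. Of all genes tested, 46.9% had a fold change below 0 in enterocytes and 49.9% in stem cells. All 14 genes of the tricarboxylic acid cycle list, which feeds NADH and succinate to complexes I and II, were below 0 in enterocytes. Their median was -0.25, and 12 lay lower without overlap, beside 20.5% of all genes. In stem cells 7 of the 14 were below 0, with a median of 0.00. Of 46 assembly factors of the complexes tested in enterocytes, 33 were below 0, with a median of -0.16. Proteins of the mitochondrial ribosome, which translates the mitochondrial messages, were below 0 for 62 of 76 in enterocytes, with a median of -0.07. Genes that copy, transcribe and process mitochondrial DNA and RNA were above 0 for 19 of 26, with a median of 0.10. Regulators of mitochondrial biogenesis were split, with 7 of 13 below 0. Inner membrane carriers and uncouplers were below 0 for 10 of 13. No gene of these lists was called in enterocytes or stem cells. Cytosolic ribosomal proteins, a list added after seeing the data, were above 0 for 69 of 81 in enterocytes, with a median of 0.14.

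The only list genes that passed the test were Etfb and Slc25a20, which both act in fat oxidation. They passed in transit amplifying cells, where 0.715% of all genes were called, and Slc25a20 also in goblet cells, where 0.521% were. Etfb, a subunit of the flavoprotein that carries electrons from fatty acid oxidation to the chain, rose in transit amplifying cells and was at 264 and 283 against 407 and 358 CPM, a log2 fold change of 0.48 ± 0.10 with an adjusted p of 0.0489 by edgeR. It was the only called gene of 18 on the list of mobile electron carriers and their donors, of which 10 were below 0. Slc25a20, which carries acylcarnitines into mitochondria, rose in transit amplifying cells, with a log2 fold change of 1.13 ± 0.17 and an adjusted p of 0.00833 by edgeR. It also rose in goblet cells, with 0.91 ± 0.18 and an adjusted p of 0.0424 by edgeR. In transit amplifying cells it was at 15.2 and 13.1 against 34.1 and 27.9 CPM and in goblet cells at 11.6 and 15.3 against 27.03 and 23.6 CPM, so both ketogenic libraries were higher in each. Without ketogenic library 1 all these calls were lost, with adjusted p of 0.439 for Etfb, and 0.0864 in transit amplifying cells and 0.0528 in goblet cells for Slc25a20, by edgeR. Etfb, close to the threshold, was also lost with RLE factors (adjusted p of 0.0537 by edgeR) and with mitochondrial genes left out (0.0516), and Slc25a20 in goblet cells with DESeq2 (adjusted p of 0.741).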

How the data were processed

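Raw UMI counts, whole numbers for each gene in each cell, were deposited by the authors as a single matrix, beside a table of each cell's library and type. Per the submitters' processing notes the reads went through Cell Ranger 2.1.0 with the mm10 build. How cells were filtered, doublets treated and types assigned is not stated in these sources, so the deposited types were taken unchanged and no doublets were called. Files were tied to diets by the library titles. Members and all gene lists were chosen with earlier results of these data known. Genes named are called members, in each complex the most abundant member and the extremes of the diet difference, isoform sets, the mitochondrial members and called list genes.

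Summing by library, in each type and in all cells, preceded the tests, because cells are not replicates. edgeR 4.0.16 in R 4.3.3 was run on the sums (quasi-likelihood test, TMM factors, filterByExpr by diet, Benjamini-Hochberg adjustment over all genes tested). Each SE is the fold change divided by the root of its F value. Levels across types use unscaled CPM, with 1 CPM added before log2 ratios. Enterocyte sums held 14946235 to 19465885 UMIs and Paneth class sums 289338 to 526414, so values of the small types are less precise. The alternatives were DESeq2 1.42.0, RLE factors, no filter, mitochondrial genes left out, limits on mitochondrial UMIs per cell, thinning to the lowest total, blocking on replicate number, an equal mix of types and dropping each library in turn. With a library dropped, its diet has a lone library that is assumed to vary like the other diet's pair. The limit of 50% mitochondrial UMIs, the classes of cells by UMIs and the cytosolic ribosomal list were added after seeing the data. The edgeR step was tested on simulated data with known changes much larger than those of most members. That test does not show whether changes as small as theirs would be found.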

Additional observations from a re-analysis of the deposited data

Results flagged for a closer look

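For 7 mitochondrial members both ketogenic libraries lay above both control libraries in the Paneth class and below them in another type, by TMM-scaled CPM. Of all genes, 19.1% lay above in the Paneth class, and 19.1%, 16.5% and 19.6% lay below in goblet, tuft and transit amplifying cells. The difference between the types was not tested. In the Paneth class and in goblet cells the log2 fold changes were 0.18 and -0.15 for mt-Atp6, 0.15 and -0.16 for mt-Co3, and 0.28 and -0.13 for mt-Cytb. For mt-Nd1 they were 0.23 and -0.12, and for mt-Nd4 0.18 and -0.11, in the same types. For mt-Nd2 they were 0.28 in the Paneth class and -0.10 in tuft cells. For mt-Nd5 they were 0.6807 in the Paneth class and -0.0815 in transit amplifying cells. No member was called in these types by edgeR except Cox6b2 in transit amplifying cells. Unscaled CPM turned the direction in the Paneth class, with a median of -0.27 over the 13 members.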

How the results depend on the processing

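Counts of members called were small and moved with the setting, from a base of 1 in transit amplifying cells and 0 elsewhere. The share of all genes called under the same setting is given in brackets. DESeq2 called 3 members in all cells (1.77%) and 2 in enterocytes (1.5%). With no filter on low counts, 3 were called in all cells (2.26%), 1 in stem cells (0.513%), 4 in transit amplifying cells (1.88%) and 2 in enterocytes (1.88%). Thinning to the lowest total gave 1 in stem cells (0.602%). With the replicate number as a block, 1 was called in all cells (0.540%), 1 in stem cells (1.04%), 2 in transit amplifying cells (1.99%) and 2 in enterocytes (1.17%). Over all genes, libraries with the same number did not deviate together (correlations of -0.04 to 0.08). The mitochondrial share over all cells was 10.85 and 9.91 against 10.96 and 9.82 percent. Library 1 was higher in both diets there, but not in each cell type. Whether the numbers pair the libraries is therefore not settled. Leaving out each library gave 0 to 2 in all cells, 0 to 1 in stem cells, 1 to 3 in transit amplifying cells, 0 to 3 in enterocytes, 0 to 2 in goblet cells, 0 to 1 in Paneth class cells and 0 to 3 in tuft cells, and 0 to 13 for stem cells against enterocytes. The cause was not tested. By library left out (control 1, control 2, ketogenic 1, ketogenic 2), the counts were 1, 2, 0 and 0 in all cells, 1, 1, 1 and 0 in stem cells, 2, 3, 2 and 1 in transit amplifying cells, 1, 3, 0 and 0 in enterocytes, and 2, 0, 1 and 0 in goblet cells. They were 0, 1, 0 and 0 in Paneth class cells, 1, 0, 3 and 0 in tuft cells, and 0 each in enteroendocrine cells. The share of all genes called moved too, and over the libraries left out was 0.222% to 2.77% in all cells, 0.470% to 1.07% in stem cells, 0.356% to 2.81% in transit amplifying cells, 0.0998% to 6.37% in enterocytes, 0.964% to 1.82% in goblet cells, 0.0565% to 0.893% in Paneth class cells, 0.0762% to 0.477% in tuft cells and 0.118% to 3.00% for stem cells against enterocytes. The median of the nuclear members stayed below 0 in all cells, enterocytes and transit amplifying cells under each alternative, while that of the mitochondrial members changed sign in all 3. Averaging shares over cells moved the diet difference in the mitochondrial share to 0.774 percentage points in all cells and 2.24 in enterocytes, from 0.0119 and 0.678. In cells under 10% mitochondrial UMIs, the difference in the log2 nuclear to mitochondrial ratio was -0.0566 in goblet cells and -0.0644 in tuft cells, of the other sign than the 0.0365 and 0.00566 over all cells of these types. Outside transit amplifying cells, Cox6b2 was called under 4 of 13 alternatives in all cells, 5 of 12 in enterocytes and 4 of 12 in stem cells, with its sign kept. Cox7a1 was called under 4 of 13 in all cells and 4 of 12 in enterocytes. Etfb kept its call in transit amplifying cells under 9 of 12, and Slc25a20 under 11 of 12 there and 10 of 12 in goblet cells. With 2 libraries per diet, changes of the size seen in most members cannot be told from library differences gene by gene.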
